A study of Rattus norvegicus with 6 samples.

Results

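Prostaglandins and leukotrienes are made from arachidonic acid by a short chain of enzymes, and 10 genes of that chain are described here in rat subchondral bone: Pla2g4a, Ptgs1, Ptgs2, Ptges, Hpgds, Alox5, Alox5ap, Alox15, Ltc4s and Lta4h. They were chosen by name for their function, and each had a single row among the 22050 annotated rat genes of the deposited table. The 6 libraries (S10, S12, S13, S20, S21 and S23) came from the bone beneath the joint cartilage, in a study that set out to relate cold exposure to arthritis. The labels give each library's tissue but no temperature, treatment, strain or age, so all 6 stayed without a group and no effect of cold was tested. Each value below is that of a library or a range over the 6. The sources used here do not say whether separate animals were sampled.

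Arachidonic acid is freed from membrane phospholipids by the cytosolic phospholipase A2 that Pla2g4a encodes. The cyclooxygenases, constitutive Ptgs1 and inducible Ptgs2, turn it into prostaglandin H2, from which terminal synthases make the single prostanoids, among them prostaglandin E2, a mediator of pain and of bone turnover. On the other branch 5-lipoxygenase (Alox5) works with its activating protein (Alox5ap) to form leukotriene A4. Leukotriene A4 hydrolase (Lta4h) converts this to leukotriene B4, an attractant of neutrophils, and leukotriene C4 synthase (Ltc4s) converts it to the cysteinyl leukotrienes. Alox15 encodes a separate lipoxygenase known from reticulocytes, eosinophils and macrophages.

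The libraries held 39990624 to 59200981 counts. Markers of bone cells were present in all of them, with a summed level of 8 osteoblast markers of 1284 to 1723 FPKM (read fragments relative to transcript length and library size), and so were markers of marrow. Neutrophil markers summed to 18315 to 77146 FPKM and erythroid markers to 1719 to 3652 FPKM. In such bulk tissue, fewer cells of a type and less RNA per cell cannot be told apart. The median over 11625 expressed genes (annotated, with a median of at least 1 FPKM) of the log2(FPKM + 1) deviation from each gene's own median was -0.31 in S10 and between -0.03 and 0.14 in the other libraries. The typical gene thus lay low in S10 on the deposited scale, but not every gene did. The FPKM values of S10 had the highest sum, 1047310 against 811992 to 922832 in the other libraries. A low value in S10 is to be read against this shift of the typical gene.

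The most abundant members were 2 genes of the leukotriene branch and Alox15, while Ltc4s of that same branch was the least abundant of the 8 expressed. Alox5ap had the highest median, 200.2 FPKM, above 97.0% of expressed genes, followed by Lta4h at 163.5 FPKM (96.4%) and Alox15 at 107.8 FPKM (94.5%). Alox5 followed at 30.1 FPKM (80.1%), Ptgs1 at 21.6 FPKM (73.4%), Hpgds at 11.4 FPKM (56.9%), Pla2g4a at 6.95 FPKM (42.2%) and Ltc4s at 5.66 FPKM (36.2%). Ptgs2 and Ptges, the pair usually described as induced together in inflammation, had medians of 0.672 and 0.447 FPKM and were the 2 genes under 1 FPKM. The order had 2 clear steps, from Alox15 to Alox5 and from Ltc4s to Ptgs2, where the ranges over the libraries did not overlap. All other neighbours in the order overlapped in range. Alox5ap lay above Lta4h in 4 of 6 libraries, Lta4h above Alox15 in 4 and Pla2g4a above Ltc4s in 4, so these neighbours did not keep 1 order. The median over the 8 expressed members was 25.9 FPKM, and over all expressed genes 9.11 FPKM.

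**Figure D1:**
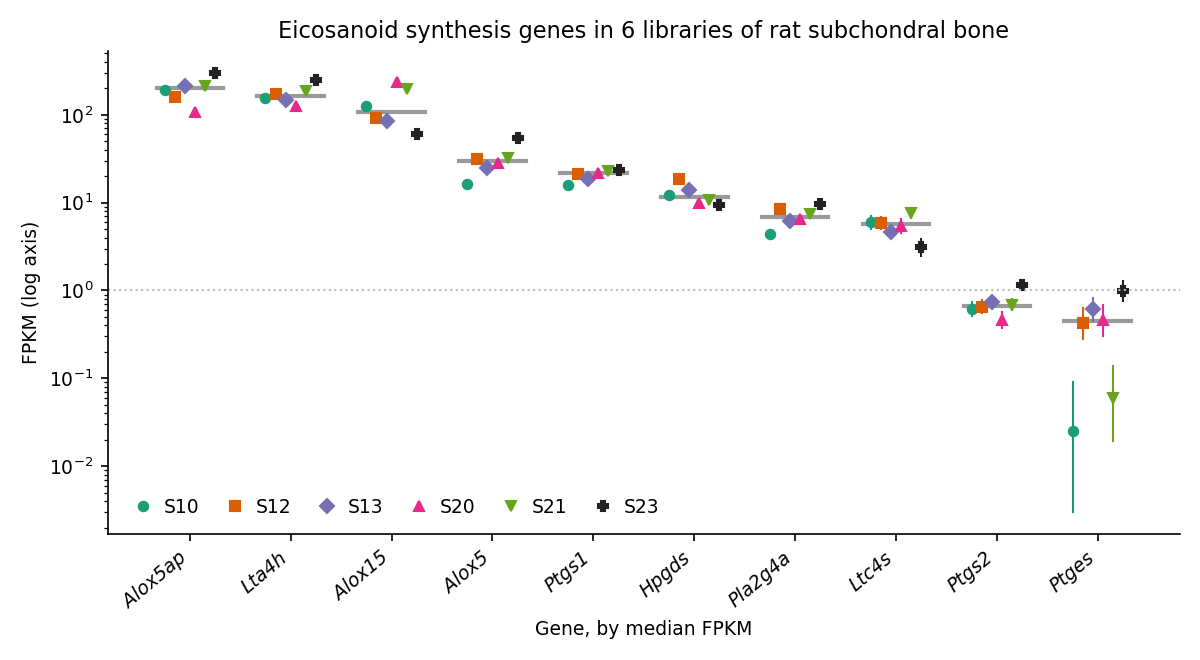
FPKM (log axis) of the 10 genes in each of the 6 libraries, ordered by median. Points are libraries, grey bars are medians over the libraries, vertical lines are exact 95% Poisson intervals for counting error, and the dotted line marks 1 FPKM. Alox5ap, Lta4h and Alox15 stand above 50 FPKM in every library, and Ptges drops to 0.0250 FPKM in S10 and 0.0590 FPKM in S21.

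Pla2g4a, which supplies the substrate for both branches, was measured at 9.71 FPKM in S23, 8.50 in S12, 7.39 in S21, 6.50 in S20, 6.14 in S13 and 4.37 in S10. S23 was high and S10 low, a fold of 2.22 between them. On scaling by trimmed mean of M-values (TMM), a correction for libraries in which a few genes take many counts, the fold over the libraries fell to 1.53 and the lowest value moved to S20.

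Of the cyclooxygenases, Ptgs1 was expressed in every library and Ptgs2 barely. Ptgs1 had 23.7 FPKM in S23, 22.9 in S21, 21.8 in S20, 21.4 in S12, 18.4 in S13 and 16.0 in S10. It was the least variable of the 8 expressed members, with a range of 0.54 on the log2(FPKM + 1) scale, and under TMM scaling 0.32, with the lowest value then in S12 and the highest in S21. Ptgs2 had 1.14 FPKM in S23, 0.736 in S13, 0.688 in S21, 0.656 in S12, 0.612 in S10 and 0.466 in S20, from 92 to 259 counts. The counting interval of S23, 1.01 to 1.29 FPKM, lay above that of each other library, of which the highest bound was 0.848 FPKM. S23 stayed highest for Ptgs2 under TMM, median-ratio and common-sum scaling and with a pseudocount of 0.1. Only correction for gene length put S10 highest, and it widened the fold over the libraries from 2.45 to 6.95. Why it did so for a gene this low was not tested. Within a library, Ptgs1 exceeded Ptgs2 by 20.7-fold (95% exact interval for counting error 18.2 to 23.6) in S23 to 46.8-fold (38.0 to 58.3) in S20, with a median of 29.3-fold. The constitutive form was thus the main cyclooxygenase transcript in all 6 libraries.

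The promoters of this unequal pair are shown because they differ in the elements they hold. RefSeq windows (assembly GRCr8) run from 250 bases before to 50 bases after the annotated start and were matched by symbol for 7 of the 10 genes. Hpgds, Alox5ap and Alox15 had no entry. Ptgs1 lies at chr3:39981169-39981468, plus strand, and Ptgs2 at chr13:64713813-64714112, plus strand. Each is printed 5′ to 3′ on the strand of the gene, with capitals for matches on either strand to GGGCGG for the GC box, TATAAA for the TATA box, CCAAT for the CCAAT box, CACGTG for the E-box and GATAAG for the GATA site.
Ptgs1: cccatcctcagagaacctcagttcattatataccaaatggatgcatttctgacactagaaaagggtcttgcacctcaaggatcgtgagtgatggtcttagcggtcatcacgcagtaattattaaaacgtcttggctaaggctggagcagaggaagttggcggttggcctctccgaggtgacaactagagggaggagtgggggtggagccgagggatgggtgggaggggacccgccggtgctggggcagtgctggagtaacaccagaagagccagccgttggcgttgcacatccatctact
Ptgs2: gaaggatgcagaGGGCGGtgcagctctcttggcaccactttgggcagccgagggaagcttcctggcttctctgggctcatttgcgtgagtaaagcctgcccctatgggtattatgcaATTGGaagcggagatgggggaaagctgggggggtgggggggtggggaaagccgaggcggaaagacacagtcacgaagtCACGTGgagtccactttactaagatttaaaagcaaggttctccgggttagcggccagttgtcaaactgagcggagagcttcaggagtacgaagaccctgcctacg
The Ptgs2 window held a GC box, a CCAAT box in reverse and an E-box, the last starting 55 bases before the start site, and the Ptgs1 window held none of the 5 motifs. Of 33469 RefSeq windows of the same length, 33.1% hold the GC box, 14.2% the TATA box, 37.5% the CCAAT box, 6.42% the E-box and 7.05% the GATA site. A match is a run of letters and not a measured site, and its absence says only that these letters are not in the window.

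Of the terminal prostaglandin synthases, Hpgds was expressed and Ptges was near the limit of detection in some libraries. Hpgds, which makes prostaglandin D2 in mast cells, macrophages and megakaryocytes, had 18.4 FPKM in S12, 13.8 in S13, 12.1 in S10, 10.8 in S21, 9.86 in S20 and 9.32 in S23. S12 stood above the other libraries, and without it the log2 range fell from 0.91 to 0.52. S12 also had the highest summed level of the macrophage markers, 682 FPKM against 444 to 533 in the other libraries, and 6 of the 8 expressed macrophage markers were highest there, as were 26.6% of all expressed genes, while Marco was at 0 counts in all libraries. The summed basophil and mast cell markers were instead highest in S23, at 202 FPKM against 74.6 to 118, of which Prss34 alone gave 110.5 FPKM. The summed megakaryocyte markers were lowest in S12, at 913 FPKM against 1167 to 1563 in the other libraries. With each marker given equal weight, their mean deviation was 0.03 in S12 and lowest in S10, at -0.17. Summed adipocyte markers (434 FPKM, against 81.6 to 248) and muscle markers (107 FPKM, against 12.2 to 44.0) were also highest in S12. The part of any of these cells in the level of Hpgds was not tested. Under TMM scaling the highest value of Hpgds lay in S10 and the lowest still in S23.

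Ptges, the inducible prostaglandin E2 synthase, fell into 2 sets of libraries. It had 2 counts in S10 (0.0250 FPKM) and 5 counts in S21 (0.0590 FPKM), against 26 counts in S12 (0.430 FPKM), 46 in S13 (0.618), 26 in S20 (0.463) and 65 in S23 (0.996). The counting intervals of S10 and S21, up to 0.0904 and 0.138 FPKM, ended below those of the other 4, of which the lowest bound was 0.281 FPKM. The step from the second lowest to the third lowest library was 6.97-fold in CPM (counts relative to library size). A step of at least 5-fold at that place occurred in 1.62% of the 1297 annotated genes with 100 to 300 counts in all, a limit chosen after Ptges was seen, and 2 of these genes, Ptges included, had S10 and S21 as the low libraries. These are counts at the edge of what the depth can measure, since a count of 0 in S21 would allow 0.0507 CPM and Ptges reached 0.0845 CPM there. In S10 a count of 0 would allow 0.0750 CPM, and Ptges, at 0.0500 CPM, lay below that.

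Of the other prostaglandin E2 synthases, Ptges3, a co-chaperone with reported synthase activity, had 122.4 to 147.4 FPKM. Ptges2, a membrane-associated form, had 2.87 to 4.97 FPKM. Both were more even over the libraries than Ptges, with log2 ranges of 0.27 and 0.63.

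In the leukotriene branch, Alox5, Alox5ap and Lta4h were each highest in S23. Alox5 had 54.2 FPKM in S23, 31.9 in S21, 31.7 in S12, 28.5 in S20, 24.5 in S13 and 16.1 in S10, a fold of 3.36 between the ends. The value in S23 stood well apart from the next, and S10 was low, also under TMM scaling, where the fold was 2.28. Alox5ap had 296 FPKM in S23, 212 in S21, 210.4 in S13, 190.0 in S10, 159 in S12 and 108 in S20, a fold of 2.75. Here S20 and not S10 was the low library, under TMM scaling as well. Lta4h had 247 FPKM in S23, 186 in S21, 173 in S12, 154 in S10, 148 in S13 and 125 in S20, a fold of 1.97 with the same library at each end as Alox5ap, although scaling to a common sum put S10 lowest for Lta4h. At 11273 to 25714 counts for Lta4h and 4763 to 15137 for Alox5ap, counting error was small beside these differences.

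Ltc4s went the other way in S23. It had 7.53 FPKM in S21, 6.01 in S10, 5.87 in S12, 5.45 in S20, 4.66 in S13 and 3.10 in S23, from 82 to 247 counts. The counting interval of S23 was 2.47 to 3.85 FPKM, below that of each other library, of which the lowest bound was 3.92 FPKM in S13. Lta4h therefore exceeded Ltc4s by 79.5-fold (64.0 to 99.96) in S23 and by 22.97-fold (19.2 to 27.6) to 31.7-fold (26.9 to 37.8) in the other 5 libraries. This ratio is taken within a library, so no scaling of libraries changes it. Without S23 its log2 range fell from 1.79 to 0.47. Under TMM scaling Ltc4s was likewise lowest in S23, with its highest value in S10.

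The promoters of Alox5 and Lta4h, which were high in the same library, and of Ltc4s, which was low there, are given for comparison. Alox5 lies at chr4:151251077-151251376, minus strand, Lta4h at chr7:29856621-29856920, plus strand and Ltc4s at chr10:35063545-35063844, minus strand (RefSeq, GRCr8). Capitals mark the same motifs.
Alox5: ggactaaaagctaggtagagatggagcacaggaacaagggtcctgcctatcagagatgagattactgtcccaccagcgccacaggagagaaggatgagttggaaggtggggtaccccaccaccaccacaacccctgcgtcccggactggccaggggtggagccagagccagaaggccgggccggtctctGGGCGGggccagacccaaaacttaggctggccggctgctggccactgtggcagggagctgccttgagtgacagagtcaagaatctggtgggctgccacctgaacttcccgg
Lta4h: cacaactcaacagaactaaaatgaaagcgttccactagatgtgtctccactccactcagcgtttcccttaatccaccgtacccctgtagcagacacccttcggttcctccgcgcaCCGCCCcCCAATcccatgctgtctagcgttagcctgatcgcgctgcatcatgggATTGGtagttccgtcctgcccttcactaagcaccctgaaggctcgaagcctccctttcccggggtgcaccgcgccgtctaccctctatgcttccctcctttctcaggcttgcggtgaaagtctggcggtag
Ltc4s: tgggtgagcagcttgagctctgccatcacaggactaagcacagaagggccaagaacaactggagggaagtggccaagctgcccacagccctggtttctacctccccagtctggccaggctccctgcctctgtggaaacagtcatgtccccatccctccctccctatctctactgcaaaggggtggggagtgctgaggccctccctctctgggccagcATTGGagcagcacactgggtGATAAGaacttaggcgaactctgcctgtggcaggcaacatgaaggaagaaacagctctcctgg
The Alox5 window held 1 GC box, and the Lta4h window held 1 GC box in reverse and 2 CCAAT boxes. The Ltc4s window held a CCAAT box in reverse and a GATA site starting 13 bases before the start site, and no GC box. The other members with a window were all highest in S23 as well. Of these, Ptgs2 and Ptges held a GC box, and Pla2g4a and Ptgs1 held none. A link between motifs and levels was not tested. The GC content of the windows was 61.7% for Alox5, 57.0% for Lta4h and 58.3% for Ltc4s, against a median of 51.7% over all windows.

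Alox15 had the widest range of the 10 genes, 1.96 on the log2(FPKM + 1) scale, and its own order of libraries. It had 235 FPKM in S20, 194 in S21, 124 in S10, 91.5 in S12, 84.4 in S13 and 59.8 in S23, a fold of 3.93. S20 and S21 were high and S23 low, the reverse of Alox5ap and Lta4h at both ends. The order of the ends held under TMM scaling (fold 3.83) and after correction for gene length (3.82). In S20 there was 8.24 times as much Alox15 as Alox5 per kilobase (7.93 to 8.56), and in S23 1.10 times (1.07 to 1.14). Alox12e, a related rat lipoxygenase gene, had a median of 0.938 FPKM and was lowest in S20, at 0.278 FPKM. How reads shared between related lipoxygenase genes were counted is not stated.

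Cell markers were set beside Alox15 because its enzyme is known from several lineages. Eosinophil granule markers were low in S20, where Alox15 was highest: the 6 eosinophil markers summed to 119 FPKM there and to 2147 to 5318 FPKM in the other libraries. Epx, the eosinophil peroxidase, had 11.7 FPKM in S20 and 141.7 to 289.9 FPKM elsewhere, and Prg2, the major basic protein of the granules, 96.0 FPKM in S20 and 1451 to 3958 elsewhere. Of the 6 markers 5 were lowest in S20 (17.1% of all expressed genes). The exception was Ccr3, the eotaxin receptor, with 5.59 FPKM in S20 and its lowest values in S21 (4.72 FPKM) and S23 (4.72 FPKM). The sum of the erythroid markers had the same ends as Alox15, though not each marker did. The sum was 3652 FPKM in S20, 2991 in S10, 2875 in S21, 2857 in S13, 2829 in S12 and 1719 in S23. Of the 7 with a row, 6 were highest in S20 (28.8% of all expressed genes), 4 were lowest in S23 and 3 in S10, where Alox15 had the third highest value. The 6 included Tfrc, the transferrin receptor of immature red cells (312.9 FPKM in S20, 104.3 in S23 and 78.2 in S10), and Alas2, the first enzyme of heme synthesis in red cells (930.6 FPKM in S20, 396.0 in S23). The 2 sets were not in step elsewhere, as Alox15 in S21 was 2.30 times that in S13 at near equal erythroid sums. The mean deviation of the erythroid markers in S20 and S23 was 0.66 and -0.64 as deposited and 0.50 and -0.77 under TMM scaling. The part of eosinophils and of erythroid cells in the level of Alox15 was not tested.

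**Figure D2:**
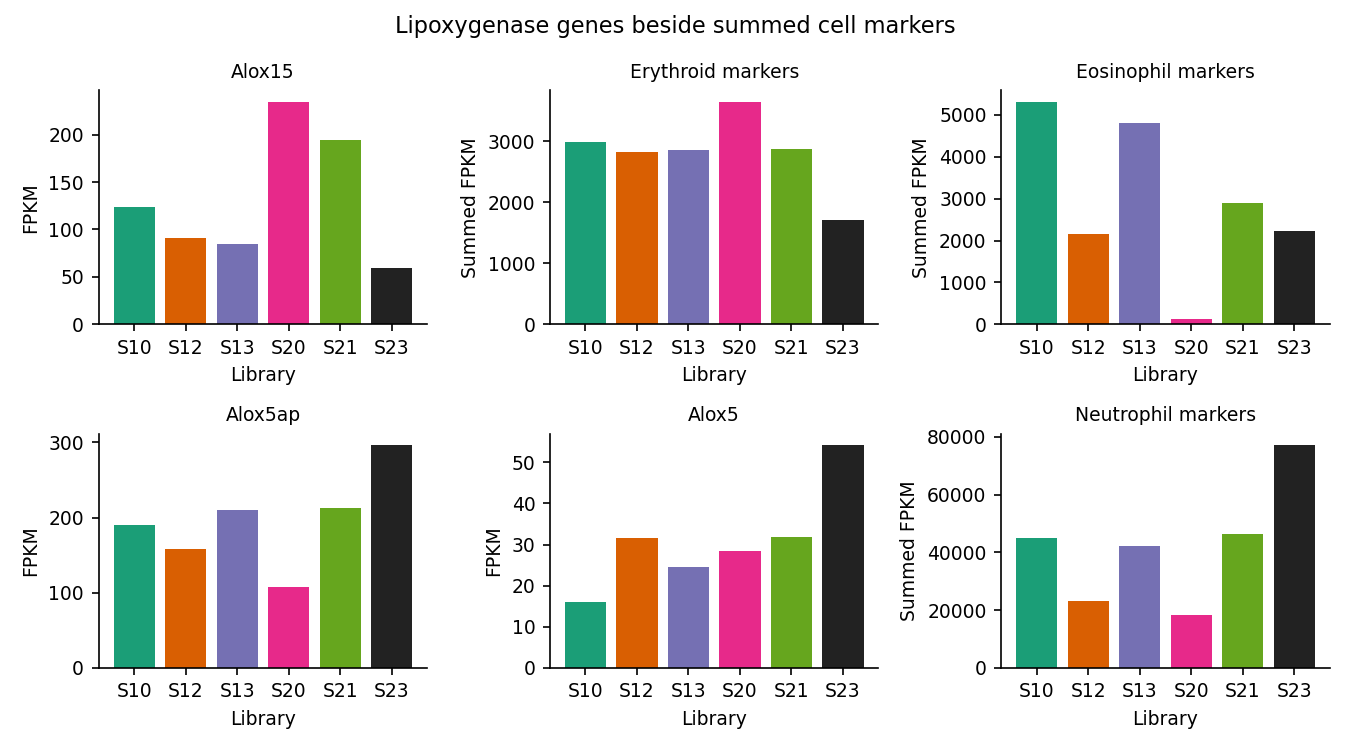
FPKM of Alox15, Alox5ap and Alox5, and summed FPKM of erythroid (7), eosinophil (6) and neutrophil (12) markers, in each library (bars, from 0). Alox15 and the erythroid sum are highest in S20 and lowest in S23, the eosinophil sum is 119 FPKM in S20, and Alox5ap and the neutrophil sum are both highest in S23 and lowest in S20.

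Neutrophil markers were set beside the leukotriene B4 genes, and both were highest in S23. The sum of the markers was 77146 FPKM in S23, 46215 in S21, 44980 in S10, 42343 in S13, 23000 in S12 and 18315 in S20, and 10 of the 11 expressed markers were highest in S23 (24.0% of all expressed genes), while 6 were lowest in S20 and 4 in S10. S100a8, a calprotectin subunit, had 25798 FPKM in S23 and 4299 in S20, and Cxcr2, the chemokine receptor of mature neutrophils, had 76.6 FPKM in S23 and 12.5 in S10. Ltf was the marker under 1 FPKM, at no more than 0.0301 FPKM. Alox5ap had the same ends as the sum (S23 and S20), and so had Lta4h, but Lta4h had the third highest value in S12, where the sum was second lowest. Alox5 departed further from the sum, as it was lowest in S10, where the sum was the third highest, and nearly as high in S12 as in S21. The sum is weighted to its most abundant markers, such as S100a8, and the 4 markers lowest in S10, among them Cxcr2, shared that end with Alox5. The lengths implied by counts and FPKM were 1441 to 4475 bases for these 4 and 367 to 1056 bases for the 6 lowest in S20. They were 1080 bases for Alox5ap and 2533 bases for Alox5, which kept their lowest libraries after correction for gene length. The marker values were not corrected for gene length, and the part of length in this split was not tested. With each expressed marker given equal weight, the mean deviation in S10 was -0.31 as deposited, as for all expressed genes, and 0.06 under TMM scaling. The part of neutrophil number in these values was not tested.

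Taken as a list and on the deposited scale, the members were about as variable as other genes. The call used here for a variable gene is a range over the libraries of at least 1 on the log2(FPKM + 1) scale. Of the 8 expressed members 4 were called (Alox15, Alox5, Alox5ap and Ltc4s), beside 36.6% of all expressed genes, and the median range was 1.03 against 0.83. Pla2g4a (0.995) and Lta4h (0.973) lay just below that limit, and Ltc4s (1.06) just above it. Without S23, 1 member, Alox15, was called, with Alox5 at 0.94, Alox5ap at 0.97 and Ltc4s at 0.59. The share of all expressed genes called without S23 was not counted. Of the 8, 5 were highest in S23 (Pla2g4a, Ptgs1, Alox5, Alox5ap and Lta4h), where 24.0% of expressed genes had their highest value, and Ptgs2 and Ptges below the expression limit were highest there too. After length correction, and with either TMM or median-ratio factors, Ptgs1 left this group and 4 were highest in S23. Alox15 alone was highest in S20, the library with the highest value of 28.8% of expressed genes. The lowest value lay in S10 for 3 of the 8 (60.1% of expressed genes), in S23 for 3 (8.37%) and in S20 for 2 (17.1%).

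**Figure D3:**
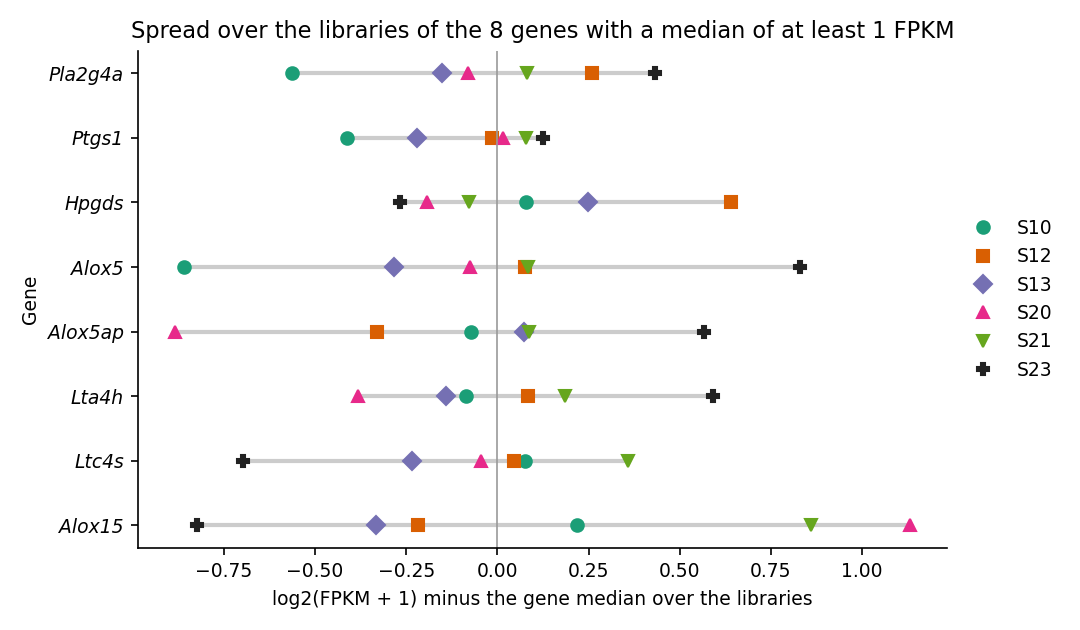
Deviation of log2(FPKM + 1) in each library (points) from the gene's median over the 6 libraries, for the 8 genes whose median reached 1 FPKM, with grey lines from lowest to highest. S23 is at the right end for Pla2g4a, Ptgs1, Alox5, Alox5ap and Lta4h and at the left end for Hpgds, Ltc4s and Alox15.

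Ratios between genes of the same library showed where the balance of the pathway differed. Alox5ap exceeded its partner Alox5 in every library, by 3.79-fold (3.62 to 3.97) in S20 to 11.8-fold (11.2 to 12.4) in S10. With each library's trend over gene length removed, the log2 range of this ratio fell from 1.64 to 0.80. The implied lengths were 1080 bases for Alox5ap and 2533 bases for Alox5. How far S10 stood above the other libraries thus depends on the correction, though S10 stayed the highest, with S13 close to it. Alox5 and Ptgs1, the entry enzymes of the 2 branches, were level in S10 at a ratio of 1.01 (0.944 to 1.08), whereas Alox5 led in the other libraries, by 1.30-fold in S20 to 2.29-fold (2.20 to 2.39) in S23. Hpgds exceeded Ptges by 9.36-fold (7.23 to 12.3) in S23 and by 21.3-fold to 42.7-fold in S12, S13 and S20. With 2 and 5 Ptges counts, the ratio was 484 in S10 (133 to 4005) and 183 in S21 (77.9 to 564), which fixes little beyond the lower bounds.

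**Figure D4:**
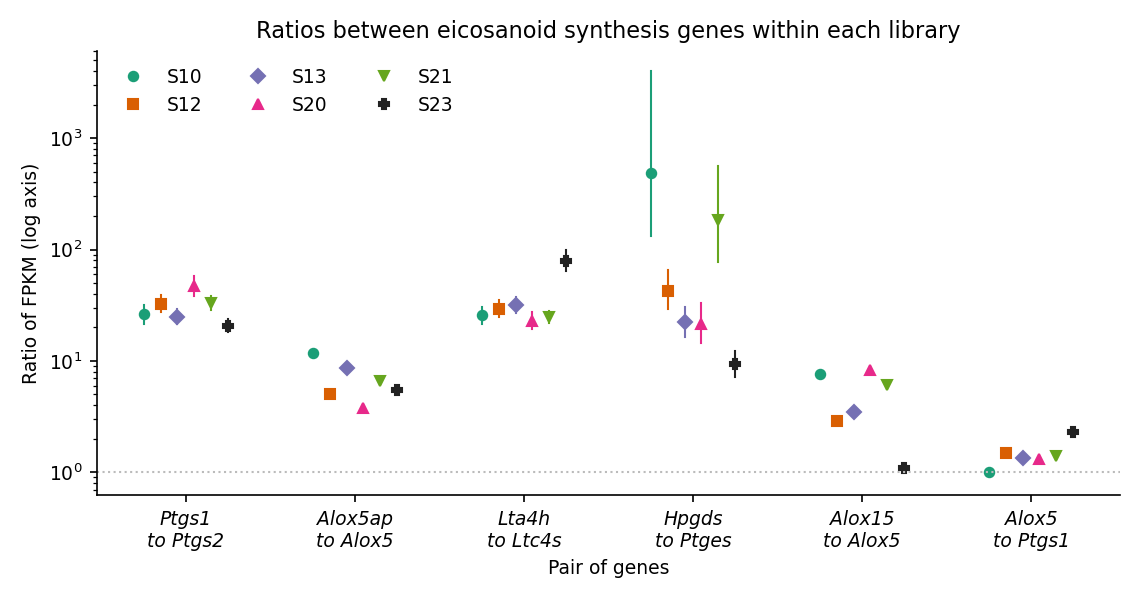
Ratio of FPKM (log axis) between pairs of genes within each library (points), with exact 95% intervals for counting error (vertical lines). The dotted line marks equal levels. S23 has the lowest Ptgs1 to Ptgs2 ratio (20.7), the highest Lta4h to Ltc4s ratio (79.5) and the lowest Alox15 to Alox5 ratio (1.10).

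For the 4 called members, the named expressed genes with the most similar profile were found by the root mean square difference over the 6 libraries between deviations of log2(FPKM + 1) from the median. Nearest to Alox5ap were Fcgr2a, an IgG receptor of phagocytes (0.07), Tspo, Tnfsf13, Serpinb1a and Trem3 (0.09). Nearest to Alox5 were Sema4a (0.08), Litaf, Lrrc25, Ugt8 and AABR07070043.1 (0.10). Nearest to Ltc4s was Mgst3, a microsomal glutathione transferase (0.09), followed by Vrk2 (0.12), RGD1310166, Dkc1 and Ubxn11 (0.15). Alox15 had no close neighbour: the nearest were LOC100911313 (0.29), Tspan33 (0.33), RGD1561730, Asns and AC128207.1 (0.39). Tspan33 had 80.3 FPKM in S20, 67.0 in S21 and 25.4 in S23. Under TMM scaling 4 of the 5 stayed among the nearest for Alox5ap and for Ltc4s, 3 for Alox15 and 2 for Alox5. Among the members themselves, the closest of the 28 pairs were Pla2g4a and Ptgs1 (0.19) and the farthest Alox5ap and Alox15 (1.07).

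A wider set of 72 genes of the pathway was listed by function, of which 67 had a row, 48 were expressed and 26 were called variable, beside 36.6% of all expressed genes. The lists were chosen with earlier results of these data known, and the counts called in the smaller groups below are to be read against the same 36.6%. Among receptors, Ltb4r, the high-affinity receptor of leukotriene B4, had the highest median (23.1 FPKM), although in S20 it lay below Tbxa2r (9.49 FPKM) and Fpr2 (9.29 FPKM). Ltb4r had 34.0 FPKM in S23, 26.0 in S13, 23.9 in S21, 22.3 in S12, 12.8 in S10 and 8.45 in S20, high and low in the same libraries as Alox5ap and Lta4h. The cysteinyl leukotriene receptors Cysltr1 and Cysltr2 had medians of 0.341 and 0.0795 FPKM, and Gpr17 was listed at 0 in all libraries. The formyl peptide and lipoxin receptor Fpr2 had a median of 12.7 FPKM, highest in S23 and lowest in S20, and the resolvin receptor Cmklr1 1.16 FPKM. Of 8 prostanoid receptors with a row, 7 were expressed, 4 of them called. Their medians were 6.90 FPKM for the prostacyclin receptor Ptgir, 6.52 for the thromboxane receptor Tbxa2r, 6.51, 2.51, 1.504 and 6.40 for the prostaglandin E2 receptors Ptger1, Ptger2, Ptger3 and Ptger4, and 2.30 for the prostaglandin F receptor Ptgfr. Ptgdr2, a prostaglandin D2 receptor, had a median of 0.332 FPKM. S10 held the lowest value of 6 of these 7 receptors and of 60.1% of all expressed genes.

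The other enzymes of the pathway were led by glutathione transferases. Mgst1, Mgst3 and Mgst2 had medians of 403.9, 351.7 and 121.5 FPKM. Mgst2, which can also make leukotriene C4, was highest in S23 (180.4 FPKM) where Ltc4s was lowest. Mgst1 was highest there too (643.9 FPKM), whereas Mgst3, the gene nearest to Ltc4s in profile, was lowest there (237.0 FPKM). Of 14 lipoxygenase and leukotriene genes with a row, 9 were expressed and 6 called. Alox12, the platelet lipoxygenase, had 15.5 to 35.7 FPKM and was highest in S20 and lowest in S10. The megakaryocyte sum was highest in S10 (1563 FPKM), of which Pf4 alone gave 1174 FPKM. With each marker given equal weight, the mean deviation was instead highest in S20 (0.22) and lowest in S10 (-0.17). The median deviation of all expressed genes in S10 was -0.31. The part of megakaryocytes in the level of Alox12 was not tested. Of the 8 megakaryocyte markers 3 were highest in S20, a share near the 28.8% of all expressed genes. Alox15b was at 0 throughout. Cotl1, which encodes a partner protein of 5-lipoxygenase, had a median of 237.1 FPKM and the lipid peroxide reductase gene Gpx4 143.4 FPKM. Dpep2 and Ggt1, which trim leukotriene C4 further, had 20.1 and 3.51 FPKM, and the epoxide hydrolase gene Ephx2 1.23 FPKM. Tbxas1, the thromboxane synthase, had 9.71 to 14.9 FPKM, and none of the 7 expressed prostanoid synthases of the list was called. The others were the reductases Akr1c14, Cbr1 and Akr1b8 (medians of 9.40, 2.82 and 2.82 FPKM) and Prxl2b (3.51 FPKM), beside Ptges2 and Ptges3. Among 13 genes of arachidonate release and handling, 10 were expressed and 4 called. The secreted phospholipase Pla2g2a, at 55.4 to 81.9 FPKM, lay above the cytosolic Pla2g4a in all libraries. Lpcat3 and Acsl4, which place arachidonate into phospholipids, had medians of 67.2 and 8.38 FPKM, and Mgll, a monoglyceride lipase, 15.9 FPKM. The phospholipase genes Pla2g7, Pla2g15, Pla2g2d, Pla2g5, Pla2g4c and Pla2g6 had medians of 31.6, 18.3, 14.0, 3.25, 2.003 and 1.85 FPKM. Of the breakdown and transport genes 5 of 7 were expressed and 4 called. The prostaglandin-degrading Hpgd had at most 0.144 FPKM, while Ptgr1 and Cyp4f18, which act on leukotriene B4, were highest in S23 at 25.4 and 25.6 FPKM. Ptgr2 and the transporters Abcc4 and Slco2a1 had medians of 5.48, 2.08 and 1.63 FPKM. Over all of these lists, 19 of 48 expressed genes were highest in S23, where 24.0% of all expressed genes were.

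Genes known to induce or restrain the pathway were also measured, with 7 of 9 expressed and 6 called. Il1b, an inducer of Ptgs2 and Ptges, had 28.3 FPKM in S23, 22.5 in S21, 16.3 in S10, 12.7 in S13, 12.1 in S12 and 10.03 in S20. It shared the highest and lowest library with Ptgs2, as did Alox5ap, Lta4h and the neutrophil sum. The highest Ptgs2 value stayed in S23 under TMM, median-ratio and common-sum scaling, and moved to S10 only after correction for gene length. A link of Il1b to Ptgs2 was not tested. Il1b was second highest in S21, where Ptges had 5 counts. Anxa1, the annexin that restrains phospholipase A2, had 754 FPKM in S20 and 2127 in S23. Tsc22d3, a glucocorticoid-induced gene, had 14.2 FPKM in S20 and 57.9 in S13. The signalling genes Mapk14, Nfkbia, Zfp36 and Nfkb1 had medians of 65.7, 42.9, 37.7 and 19.3 FPKM.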

How the data were processed

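Total RNA from 6 libraries of rat subchondral bone was sequenced after an RNeasy extraction and a SMARTER mRNA library preparation, per the labels' protocols. The authors deposited whole-number counts per gene without normalization and, per the file headers, an FPKM value for each. The aligner, counter and use of strand were not given in the sources used here. The submitters' processing notes name GRCm38 and mm10, which are mouse builds, beside rat Ensembl IDs, so no coordinates come from the files. Of 30610 rows, 10 without values were left out, 22050 were annotated and 11625 of these had a median of at least 1 FPKM. No library could be assigned to a group and nothing was tested between libraries.

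Levels are deposited FPKM, and differences are on the log2(FPKM + 1) scale, which understates those of low genes. Intervals are exact 95% Poisson or binomial (Clopper-Pearson) intervals and, like the 3 counts that a count of 0 allows, cover counting error only. Total counts set the precision. Alternatives were TMM factors (edgeR 4.0.16), median-ratio factors, a common sum, a pseudocount of 0.1, FPKM minimums of 0.5 and 5, removal of each library's median in 20 bins of implied gene length, and leaving out each library. The range, length and nearest-gene calculations were tested on simulated data. Named genes were all members, the genes of 7 pathway lists (those expressed with values, the others by count or name), the 5 nearest genes of each called member and up to 3 markers from each of 16 cell lists. Of the 198 listed genes 11 had no row. Members and lists were chosen with earlier results of these data known, and the count of members highest in S23, the step in Ptges, the motifs and the promoters shown were chosen after values were seen. Analyses used Python 3.11.15 with pandas 2.3.3 and scipy 1.17.1.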

Additional observations from a re-analysis of the deposited data

How the results depend on the processing

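The number of expressed members was 8 under every scaling, with each library left out and at a minimum of 5 FPKM, and 9 at a minimum of 0.5 FPKM. The number called variable was 4 as deposited, 5 under TMM, median-ratio and common-sum scaling and with a pseudocount of 0.1, 4 after length correction, and 1 to 4 with a library left out. The value of 1 came without S23, and without S20 or S21 it was 3. The set called changed too, as a common sum left out Ltc4s (0.97) and took in Pla2g4a (1.31) and Lta4h (1.03). The share of all expressed genes called was counted only on the deposited scale with all 6 libraries. The other counts have no such share beside them. The count highest in S23 was 4 or 5 under all scalings and length correction. Of 110 alternative ranges of single members 18 moved by more than the spread over libraries, among them those of Pla2g4a and Ptgs1, which narrowed under TMM scaling to 0.54 and 0.32. Of 12 repeats of the nearest-gene lists, 5 kept fewer than 4 genes. No paired analysis was possible because no library has a group. Depth limits Ptges, Ptgs2 and Ltc4s, with 2 to 65, 92 to 259 and 82 to 247 counts per library.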

Other observations

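Marker lists not set beside a result above were also summed in each library. Osteoclast markers summed to 418 to 813 FPKM, T and NK cell markers to 211 to 418, synovial fibroblast markers to 137 to 215, chondrocyte markers to 108 to 236, B cell markers to 57.3 to 176, osteocyte markers to 71.8 to 114 and endothelial markers to 35.7 to 45.1 FPKM.

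Other genes of the pathway fell into separate sets of libraries, and all of these were chosen after their values were seen. Ephx2, the soluble epoxide hydrolase that breaks down epoxides of arachidonic acid, had 2.14 FPKM in S13, 2.84 in S20 and 2.60 in S21, but 0.286 in S10, 0.320 in S12 and 0.224 in S23. The 2 sets were drawn from these same values, so their lack of overlap carries no weight. The share of all genes with such a gap was not counted, and no label separates these libraries.

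Pla2g4c, a calcium-independent relative of Pla2g4a, had 0.0236 FPKM in S20 against 1.004 in S10, 2.48 in S12, 3.94 in S13, 2.65 in S21 and 1.53 in S23. Il6 had 2.11 FPKM in S23, the library with the highest Ptgs2 and Ptges, and at most 0.278 FPKM elsewhere. Tnf was instead lowest in S23 at 0.351 FPKM and highest in S20 at 0.978 FPKM, from 30 to 74 counts per library. Its value in S10, 0.404 FPKM, lay close to that of S23, so its low end is not fixed. The selenoenzyme gene Gpx4, which reduces lipid hydroperoxides, ran from 76.7 FPKM in S20 to 290.0 FPKM in S10. S20, the library with the most Alox15, also held the lowest value of 17.1% of all expressed genes. Gpx4 has an implied length of 961 bases, and its values were not corrected for gene length. A link of Gpx4 to Alox15 was not tested.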
